A study of Mus musculus with 67 samples.

Results

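The 10 genes described here encode transcription factors, a cytokine receptor chain and cytotoxic granule proteins that T helper 1 (Th1) cells share with killer lymphocytes: *Tbx21*, *Eomes*, *Runx3*, *Stat4*, *Il12rb2*, *Nkg7*, *Gzma*, *Gzmb*, *Gzmk* and *Prf1*. They were chosen by name, and all 10 were found among the 24530 genes left after the RefSeq names of each gene were summed. The study asked how a high-calorie diet alters CD4+T cells of the mouse hypothalamus, and it sequenced sorted T cells in a pilot of 8 libraries and in a later, replicated experiment of 59. In the replicated experiment, activated conventional T cells (Tconv: CD4+CD25-Foxp3GFP-, high in CD44 and low in CD62L) and regulatory T cells (Tregs) were sorted from the hypothalamus and from the remaining brain (rest brain). The study states pools of 5 mice for the Tconv libraries and the labels give no number for the Tregs, while pool labels such as 11_14, 15_21 and 47_25 do not span 5 numbers, so the size of each pool is not certain.

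The mice were Balb/c females or C57Bl/6J males, so that strain and sex cannot be told apart, and were fed either a diet high in fat and sugar (HFHS) or the standard one (SD), and the study began feeding at 6 weeks of age. The labels give no length of feeding for this experiment. In the hypothalamus each strain, diet and cell type had 4 libraries. In the rest brain the C57Bl/6J groups had 3 (Tconv, HFHS) or 4 libraries, and the Balb/c groups had 3 Tconv libraries on each diet, 4 Treg libraries on HFHS diet and 2 on SD. Sorting by GFP means that the mice carried a Foxp3 reporter, although the labels of this experiment name only the strain. The pilot held 1 library a group, all from the hypothalamus and all from females: CD4+CD25- cells with low to intermediate CD44 (labelled naive) and Tregs of 9 pooled Foxp3GFP Balb/c mice after 16 weeks of HFHS diet or SD, and CD4+T cells and CD25 hi cells of 7 pooled leptin-deficient *ob/ob* mice or wild-type (WT) mice of the C57Bl/6J strain. Nothing in the labels says that libraries of a group came from separate sorts, so the tests measure the spread between pools.

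Total counts on genes ran from 13196691 to 20538316 in the 16 hypothalamic Tconv libraries and from 1724150 to 38482283 in the 16 hypothalamic Treg libraries. They ran from 11340067 to 28187014 in the 13 rest brain Tconv libraries and from 8938480 to 24985602 in the 14 rest brain Treg libraries. Levels are given as CPM (counts scaled to a library total of 1e6), and 3 counts, taken as the floor, were worth 0.146 to 0.227 CPM in hypothalamic Tconv but 0.0780 to 1.74 CPM in hypothalamic Tregs, 0.106 to 0.265 CPM in rest brain Tconv and 0.120 to 0.336 CPM in rest brain Tregs. Hypothalamic Tregs held the fewest genes, 3562 to 11458 with a median of 5808, against 10206 to 12221 in hypothalamic Tconv. Floors and intervals cover counting error alone, since amplified reads are not independent molecules.

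The T cell markers *Cd3d*, *Cd3e*, *Cd3g*, *Cd4*, *Lck* and *Cd2* together held 7306 to 9464 CPM in the Tconv libraries. Their sum was 7168 to 10590 CPM in rest brain Tregs and 182.6 to 10320 CPM in hypothalamic Tregs. The lowest was C57Bl/6J SD pool 11_15 of hypothalamic Tregs, with *Cd3e* at 37.9 CPM and an endothelial marker sum of 4122 CPM. *Foxp3*, the defining factor of Tregs, reached at most 13.8 CPM in the 29 Tconv libraries and held at least 241 CPM in all 14 rest brain Treg libraries. In hypothalamic Tregs it ranged from 0.0977 to 862 CPM, and 4 of the 16 libraries were under 10 CPM and so went against their label in this gene. These were Balb/c SD pool 32_36 (0.0977 CPM of *Foxp3*, with 4866 CPM of the microglial gene *P2ry12*), C57Bl/6J SD pools 43_47 (3.48 CPM, in the library of 1724150 counts) and 11_15 (1.19 CPM, with 413 CPM of *P2ry12* and 1682 CPM of the macrophage gene *Lyz2*), and C57Bl/6J HFHS pool 06_10 (0.429 CPM). In other Treg markers pools 43_47 and 06_10 kept to their label, with *Il2ra* at 757.5 and 666 CPM, *Ikzf2* at 793 and 1711 CPM and Treg marker sums of 3094 and 3193 CPM against a median of 2712 CPM in the 16. Pool 32_36 held *Ikzf2* at 1640 CPM and a Treg marker sum of 3211 CPM, but *Il2ra* at 0.0977 CPM. The Treg marker sum of pool 11_15 was 73.7 CPM. *P2ry12* also passed 100 CPM in hypothalamic Tregs of C57Bl/6J SD pool 67_71 (308 CPM, with *Foxp3* at 296 CPM) and in rest brain Tconv of Balb/c SD pool 42_46 (265 CPM). In the pilot the WT CD25 hi library went against its label, with 18730 CPM of *P2ry12*, 2.44 CPM of *Foxp3* and 17.8 CPM of *Cd3e*. In the pilot *Foxp3* was also at 72.7 CPM in the SD Tconv library, against 75.3 CPM in the SD Tregs, and at 299.5 CPM in the WT CD4+ library, against 27.8 CPM in the *ob/ob* CD4+ library and 270.2 CPM in the *ob/ob* CD25 hi library. Called counts among the 10 genes that the apart libraries of the replicated experiment enter are given with and without them, and counts of the gene lists with them only.

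Th1 cells arise when interleukin-12 signals through a receptor that contains the *Il12rb2* chain and activates Stat4, while T-bet (*Tbx21*) and Runx3 install and stabilize the interferon-gamma programme. Eomesodermin (*Eomes*), a relative of T-bet, and Runx3 are best known from CD8+ killer cells, where perforin (*Prf1*) opens target membranes for the granzymes and Nkg7, a granule membrane protein, takes part in granule release. Some CD4+T cells and some Tregs carry the same granule genes. On GRCm38.p6, *Tbx21* lies at chr11:97098007-97115331, *Eomes* at chr9:118478186-118486132, *Runx3* at chr4:135120645-135177990, *Stat4* at chr1:51987106-52107189 and *Il12rb2* at chr6:67285986-67376293. *Nkg7* lies at chr7:43437138-43438246, *Gzma* at chr13:113093824-113100981, *Gzmk* at chr13:113171630-113180965, *Gzmb* at chr14:56258836-56262334 and *Prf1* at chr10:61297751-61304684. Granzyme genes are close relatives, and how reads shared between them were split was not examined here.

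Activated Tconv of the brain carried the Th1 transcription factors at moderate levels and *Nkg7* at a very high one. Among the factors, *Stat4*, which relays interleukin-12 signals, was the most abundant by length-scaled abundance (TPM, transcripts scaled to the same total), at 201 ± 36.2 TPM (mean ± standard deviation, n = 16) in the hypothalamus and 182 ± 65.9 TPM (n = 13) in the rest brain. It stood at 325 to 621 CPM (median 434) in the hypothalamus and at 222 to 606 CPM (median 444) in the rest brain, so that no Tconv library was low. *Tbx21*, the master factor of Th1 cells, was found in each of the 29 Tconv libraries, at 16.6 to 135 CPM (median 62) in the hypothalamus and 6.77 to 95.04 CPM (median 48.5) in the rest brain. Its lowest values, 6.77, 8.15 and 13.7 CPM, all belonged to rest brain Tconv of Balb/c mice. *Runx3*, which represses CD4 and sustains cytotoxic genes, stood at 20.3 to 134 CPM (median 66.3) and 24.4 to 73.8 CPM (median 56.4) and was likewise above 20 CPM in every Tconv library. *Eomes* stood at 0 to 58.8 CPM (median 10.97) and 0.265 to 63.99 CPM (median 12.5). It was at 0 in 3 hypothalamic Tconv libraries, C57Bl/6J SD pool 67_66 and Balb/c SD pools 32_36 and 37_41, and its highest hypothalamic value was in C57Bl/6J SD pool 11_15. *Il12rb2*, the inducible chain of the interleukin-12 receptor, stood at 0 to 88.4 CPM (median 16.7) and 0.164 to 42.2 CPM (median 12.96), with its highest values in C57Bl/6J libraries.

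Of the granule genes, *Nkg7* was high in every Tconv library, at 832 to 2248 CPM (median 1468) in the hypothalamus and 1100 to 2581 CPM (median 1644) in the rest brain. *Gzmk*, a tryptase-like granzyme, stood at 58.2 to 217 CPM (median 109) and 78.8 to 273 CPM (median 144), and it too was present in all 29 Tconv libraries. *Gzmb*, the caspase-activating granzyme, was uneven: in the hypothalamus it was at 0 to 1390 CPM (median 96.7), and in the rest brain at 4.48 to 97.5 CPM (median 51.2). Its highest value came from C57Bl/6J HFHS pool 72_76 and its 0 from Balb/c SD pool 06_10, both hypothalamic. *Gzma*, the other tryptase of the same cluster on chromosome 13, was at 0 to 143 CPM (median 7.28) and 0 to 130.2 CPM (median 20.3). *Prf1* was at 0 to 67.4 CPM (median 9.99) and 0.0545 to 25.1 CPM (median 3.46). It was at 0 in 4 hypothalamic Tconv libraries, so that *Gzmk* and *Nkg7* were present there without a detectable perforin transcript.

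By TPM, the order in hypothalamic Tconv was *Nkg7* (2955 ± 853 TPM, mean ± standard deviation, n = 16), *Gzmk* (244 ± 83.1 TPM), *Stat4* (201 ± 36.2 TPM), *Gzmb* (200 ± 328 TPM), *Gzma* (34.6 ± 64.1 TPM), *Tbx21* (33.8 ± 19.0 TPM), *Runx3* (21.4 ± 10.6 TPM), *Il12rb2* (11 ± 12.4 TPM), *Prf1* (9.25 ± 13.1 TPM) and *Eomes* (4.59 ± 5.91 TPM). Only the step from *Nkg7* to *Gzmk* was larger than the standard deviations of both neighbours on the TPM scale, and all other neighbours in this order overlapped within 1 standard deviation, *Gzmb* to *Gzma* included. In rest brain Tconv the TPM order was *Nkg7* (3002 ± 889 TPM, n = 13), *Gzmk* (282 ± 108 TPM), *Stat4* (182 ± 65.9 TPM), *Gzma* (63.1 ± 71.4 TPM), *Gzmb* (39.3 ± 29.5 TPM), *Tbx21* (21.2 ± 16.8 TPM), *Runx3* (15.9 ± 5.43 TPM), *Il12rb2* (7.32 ± 6.04 TPM), *Eomes* (4.81 ± 5.15 TPM) and *Prf1* (4.61 ± 5.43 TPM). There the steps on the TPM scale from *Nkg7* to *Gzmk*, from *Stat4* to *Gzma* and from *Runx3* to *Il12rb2* were larger than the standard deviations of both neighbours, and the other steps were not. *Nkg7* and *Gzmk* therefore led the list in both tissues, and *Eomes* and *Prf1* closed it.

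**Figure D1:**
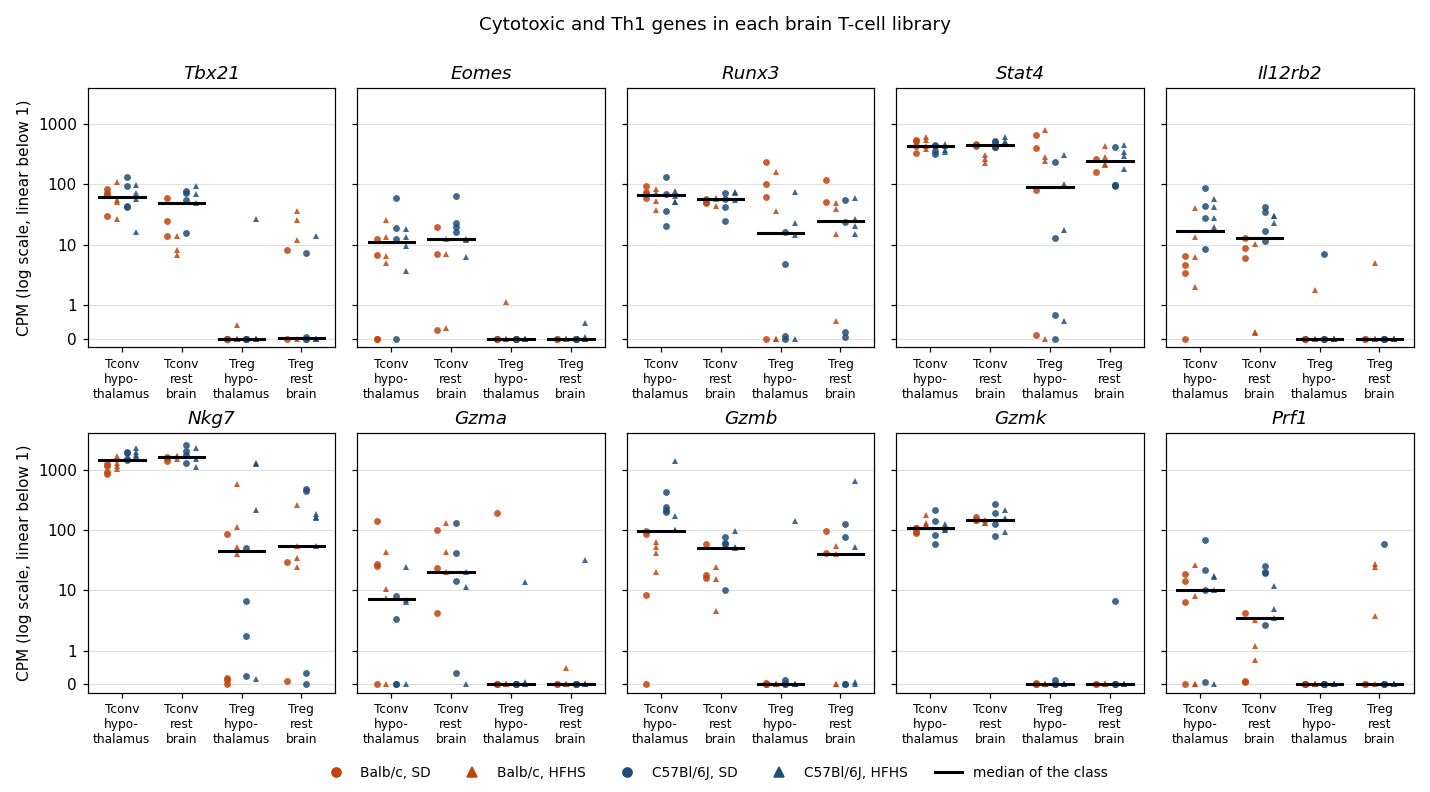
Each point is 1 library of the replicated experiment and shows CPM of the named gene (symmetric log axis), by cell type and tissue, with colour for strain, marker shape for diet and a black line at the median of the class. *Nkg7* in Tconv lies between 832 and 2581 CPM, while *Prf1* is at 0 in all 16 hypothalamic Treg libraries.

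Since the same genes mark CD8+T cells and natural killer (NK) cells, transcripts of these cells were read in the same libraries. The 2 CD8 genes *Cd8a* and *Cd8b1* together held 8.69 to 619 CPM (median 218) in hypothalamic Tconv and 1.94 to 736 CPM (median 276) in rest brain Tconv, with *Cd8b1* the more abundant in both. *Cd4* in the same libraries held 143 to 805 CPM and 84.9 to 514 CPM. CD8 transcripts were thus found in Tconv libraries sorted as CD4+, and their part in the levels of the 10 genes was not tested as a share of cells. The study lists CD8a among the exclusion markers of its flow cytometry of brain CD4+T cells, and the labels do not give the full gate of these sorts. Of the 7 NK genes, 5 passed 3 counts in some hypothalamic Tconv library, *Klra4* was at 0 in all, and the sum ran from 0.0589 to 107 CPM with *Klre1* the most abundant. In rest brain Tconv the sum ran from 22.3 to 282 CPM, *Klra4* was again at 0 in all, and *Fcer1g*, which other myeloid and lymphoid cells share, was the most abundant. *Zbtb16*, the factor of NKT cells, reached at most 12.8 CPM in any Tconv library.

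*Cd8a* was at 0 in 3 hypothalamic Tconv libraries, C57Bl/6J SD pools 43_47 and 67_66 and C57Bl/6J HFHS pool 77_80, and at 34.9 CPM in C57Bl/6J HFHS pool 06_10. With *Cd8b1* the CD8 sum of these 4 was 14.3, 8.69, 22.2 and 112.7 CPM. In these libraries, in this order, *Nkg7* stood at 1897, 1485, 1964 and 2248 CPM. *Gzmk* stood at 81.9, 58.2, 99.0 and 99.9 CPM and *Gzmb* at 244.5, 215.5, 98.0 and 167.9 CPM. The 2 lowest *Gzmk* values of hypothalamic Tconv were among them, and *Gzmb* was higher, at 1390 and 419 CPM, in C57Bl/6J pools 72_76 and 11_15. *Prf1* in the 4 was between 0 and 10.01 CPM. In the 6 rest brain Tconv libraries with at most 23.1 CPM of *Cd8a*, all C57Bl/6J, *Nkg7* ranged from 1100 to 2581 CPM and *Gzmk* from 78.8 to 273 CPM. These spans cover the whole range of the rest brain Tconv libraries for both genes. Across the 29 Tconv libraries, after each group's mean was taken out on the log2(CPM + 1) scale, *Cd8a* went with *Prf1* at r = 0.59 (rho = 0.64) and with *Gzmk* at r = 0.50 (rho = 0.51), but with *Nkg7* at r = 0.00 and with *Gzmb* at r = 0.06. With *Eomes* it had r = 0.41 (rho = 0.43) and with *Stat4* r = −0.49 (rho = −0.54). The remaining members lay between −0.14 (*Tbx21*) and 0.30 (*Runx3*). These correlations are descriptions over 29 points that share depth and sorting.

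**Figure D2:**
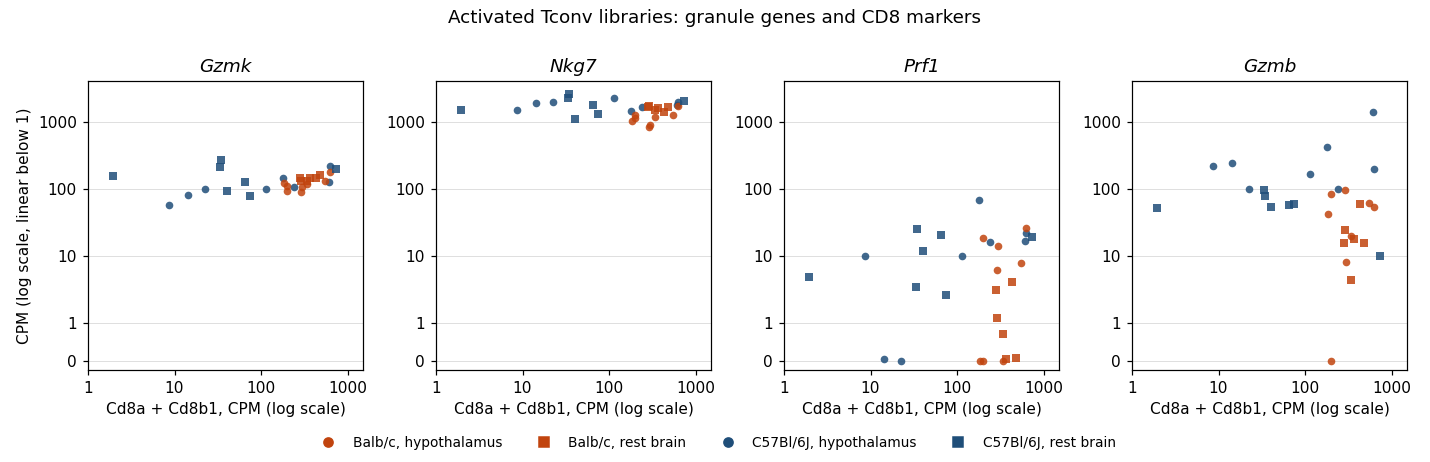
Each point is 1 of 29 Tconv libraries, with CPM of the named granule gene on the vertical axis against the summed CPM of *Cd8a* and *Cd8b1* on a log axis. *Nkg7* lies between 832 and 2581 CPM along the whole axis, down to the library with 1.94 CPM of CD8 transcripts.

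In the hypothalamus, Tregs held less of 7 of the 10 genes than Tconv of the same brain region. *Prf1* was at 0 in all 16 Treg libraries, *Gzmk* did not pass its floor in any of them, and *Eomes*, *Tbx21* and *Il12rb2* were found in at most 2. *Nkg7* was lower but still present in most Treg libraries, and *Runx3* and *Stat4* did not pass the test. In bulk libraries, fewer cells of a kind and less RNA per cell cannot be told apart. The Tconv were sorted as high in CD44 and low in CD62L, and no such gate is given for the Tregs. Cell type and this gate therefore cannot be told apart, here and in the rest brain. The 2 CD8 genes together held 0 to 179 CPM (median 0.0688) in these Tregs and 8.69 to 619 CPM (median 218) in Tconv. The sum of the 7 NK genes was 0 to 3314 CPM (median 0) in Tregs and 0.0589 to 107 CPM (median 30.5) in Tconv. In Tregs only 2 of the 7 passed 3 counts in some library, and *Ncr1*, *Klra4* and *Klra8* were at 0 in all. The most abundant was *Fcer1g*, which myeloid cells share. The 3314 CPM came from Balb/c SD pool 32_36, the library with 4866 CPM of *P2ry12*. What part these transcripts had in the differences was not tested. edgeR's quasi-likelihood test, with p-values adjusted over all 11283 genes tested by the Benjamini-Hochberg method, called 7 of the 10 genes, all lower in Tregs and each lower in 4 of 4 combinations of strain and diet, while it called 13.9% of all genes in either direction and 13.3% as lower. The median log2 difference of all genes was −0.96 in this comparison, and the log2 differences below are to be read against it.

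*Tbx21* was at 0 in 14 of the 16 hypothalamic Treg libraries, and the others, C57Bl/6J HFHS pool 72_76 and Balb/c HFHS pool 11_14, held 27.2 and 0.416 CPM. The lowest Tconv library held 16.6 CPM, so that a single Treg library reached into the Tconv range, and the log2 difference was −9.70 (SE 1.83, adjusted p = 0.0003). *Eomes* was at 0 in 15 of 16 Treg libraries and at 1.12 CPM in Balb/c HFHS pool 11_14 (log2 difference −9.07, SE 1.58, adjusted p = 0.000118). *Il12rb2* was at 0 in 14, and stood at 6.96 CPM in C57Bl/6J SD pool 43_47 and at 1.76 CPM in Balb/c HFHS pool 15_21 (log2 difference −7.23, SE 1.55, adjusted p = 0.00116). For these genes the Treg side held almost no counts, so the fitted log2 differences depend on how counts of 0 are handled and set no bound on the fold. *Stat4* in hypothalamic Tregs spread from 0 to 809 CPM (median 90.8), around the narrow Tconv range of 325 to 621 CPM, and its log2 difference of −1.42 (SE 0.79) did not pass (adjusted p = 0.306, lower in 4 of 4 combinations). *Runx3* spread from 0 to 234 CPM (median 15.5) in Tregs and did not pass either (log2 difference −1.09, SE 1.12, adjusted p = 0.684, lower in 3 of 4). Both highest Treg values of these factors were Balb/c libraries, and limma-voom called both factors lower in Tregs, in a fit that called 7408 of the 11283 genes lower and had an all-gene median of −3.63.

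Among the granule genes, *Gzmk* was the only one of the 10 whose hypothalamic Treg and Tconv libraries did not overlap: 14 Treg libraries were at 0 and the others, C57Bl/6J SD pool 11_15 and Balb/c SD pool 06_10, held 0.119 and 0.0296 CPM, against at least 58.2 CPM in Tconv (log2 difference −12.92, SE 1.11, adjusted p = 1.8e-10). *Prf1*, at 0 in every Treg library, was at least 44.6-fold lower than in Tconv, taking the floor of 3 counts per library for Tregs (adjusted p = 0.000239). *Gzmb* was at 142 CPM in Tregs of C57Bl/6J HFHS pool 33_37, and the other 15 libraries held at most 0.119 CPM. Apart from that pool, *Gzmb* was thus at or near 0 in hypothalamic Tregs, and the log2 difference was −10.51 (SE 1.74, adjusted p = 5.87e-05). *Gzma* was found in 3 of 16 Treg libraries, at 189, 13.7 and 0.0567 CPM, and did not pass (log2 difference −4.34, SE 2.26, adjusted p = 0.255, lower in 4 of 4), although DESeq2 called it.

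*Nkg7* in hypothalamic Tregs of C57Bl/6J mice stood at 1221, 217, 1278 and 0.170 CPM on HFHS diet and at 6.78, 1.74, 49.5 and 0.237 CPM on SD. In Tregs of Balb/c mice it stood at 583, 112, 52.7 and 40.5 CPM on HFHS diet and at 0.118, 0, 86.7 and 0.199 CPM on SD. C57Bl/6J HFHS pools 06_10 and 72_76 thus reached the Tconv range of 832 to 2248 CPM, while 6 Treg libraries held less than 2 CPM. The log2 difference was −4.14 (SE 0.97, adjusted p = 0.0025). Pool 06_10 was among the libraries with almost no *Foxp3*, and pool 72_76 was not.

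The same 7 genes were called when the 4 hypothalamic Treg libraries under 10 CPM of *Foxp3* were left out, and when the libraries over 100 CPM of *P2ry12* were left out. Leaving out any 1 of the 32 libraries ended none of the 7 calls. With SD libraries alone *Il12rb2* was lost (−6.60). With C57Bl/6J mice alone 3 were called (*Eomes*, *Gzmk* and *Prf1*), and without the Tconv libraries over 50 CPM of *Cd8a*, which left 4 Tconv libraries, edgeR called 0 of 11451 genes, 938 of them at an unadjusted p under 0.05. In that last fit *Gzmk* differed by −12.31 and *Nkg7* by −5.00 on the log2 scale, and over all alternatives the adjusted p ran from 6.93e-73 to 0.165 for *Gzmk* and from 1.67e-14 to 0.344 for *Nkg7*.

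The related genes were read from 3 fixed lists. Of 20 further genes of the Th1 pathway, such as the receptors and kinases of interleukin-12 and interferon-gamma signalling, 19 were tested in the hypothalamus, 0 were higher and 1 lower in Tregs. This was *Zeb2*, a factor downstream of T-bet (log2 difference −6.46, adjusted p = 0.0287, lower in 3 of 4 combinations), with a median of 0 CPM in Tregs and 1.03 CPM in Tconv, although 1 Treg library held 89.8 CPM. With that library included, the means ran the other way, at 5.61 CPM in Tregs and 2.31 CPM in Tconv. The list's median log2 difference was −1.86, against −8.15 for the 10 genes (−6.36 with *Prf1* at its bound) and −0.96 for all genes. Of 22 genes of the cytotoxic machinery, 21 were tested, 1 was higher and 9 were lower in Tregs (median −1.45). *Srgn*, the core proteoglycan of granules, was the higher one, at 608 to 4682 CPM in Tregs and 804.5 to 1241 CPM in Tconv (log2 difference 0.89, adjusted p = 0.00127, higher in 4 of 4). *Fasl*, the death ligand, was the largest of the lower ones, with at most 0.662 CPM in Tregs against 193 to 459 CPM in Tconv (log2 difference −12.44, adjusted p = 1.46e-10, lower in 4 of 4). *Slamf7* was at 0 in all 16 Treg libraries and so at least 119.9-fold lower (adjusted p = 4.34e-06), and the chemokine gene *Ccl4* came next (log2 difference −12.06, adjusted p = 0.00403, lower in 3 of 4). *Ccl4* overlapped between the cell types, at 0 to 410.6 CPM in Tregs (mean 25.7, median 0) and 0 to 330 CPM in Tconv (mean 113.5, median 99.9). Of 10 regulators of other helper fates, 3 were higher (*Foxp3*, *Id3* and *Ikzf2*) and 2 lower, *Bcl6* among them, with a list median of 0.12. The Tconv sort itself excluded cells with the *Foxp3* reporter, in both tissues.

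In the rest brain, Tregs again held far less *Nkg7*, *Gzmk*, *Eomes* and *Il12rb2* than Tconv, but *Gzmb* and *Prf1* were present in some of them. *Nkg7* and *Gzmk* were separated without overlap between the cell types. The share of all genes without overlap was not counted, here or in the other comparisons, so whether this is unusual cannot be said. edgeR called 6 of the 10 genes, all lower in Tregs, while it called 15.7% of the 13956 genes tested in either direction and 12% as lower. The median log2 difference of all genes was −0.35 here, and −0.24 when libraries were scaled by their totals alone.

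*Nkg7* in rest brain Tregs stood at 53.3, 157, 185 and 164 CPM in C57Bl/6J mice on HFHS diet and at 480.0, 0, 447 and 0.345 CPM on SD. In Balb/c mice it stood at 24.5, 53.6, 257 and 34.9 CPM on HFHS diet and at 29.9 and 0.112 CPM on SD. The highest of these, 480 CPM, was below the lowest Tconv library at 1100 CPM, and the log2 difference was −4.07 (SE 0.78, adjusted p = 0.000665, lower in 4 of 4 combinations). *Gzmk* was at 0 in 13 of 14 Treg libraries and at 6.74 CPM in C57Bl/6J SD pool 62_66, against 78.8 to 273 CPM in Tconv (log2 difference −10.81, SE 1.19, adjusted p = 2.35e-07, lower in 4 of 4). *Gzma* was found in 2 Treg libraries, at 32.2 and 0.482 CPM (log2 difference −9.30, SE 2.18, adjusted p = 0.00391, lower in 4 of 4).

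*Eomes* was at 0 in 12 of 14 rest brain Treg libraries and at most 0.459 CPM, against 0.265 to 63.99 CPM in Tconv (log2 difference −9.63, SE 1.27, adjusted p = 5.2e-06, lower in 4 of 4). *Il12rb2* was at 0 in 13 Treg libraries and at 5.07 CPM in Balb/c HFHS pool 15_21, the pool label under which hypothalamic Tregs held 1.76 CPM (log2 difference −9.87, SE 1.87, adjusted p = 0.000603, lower in 4 of 4). *Stat4*, by contrast, was present in every rest brain Treg library, at 95.2 to 442 CPM (median 242), and was lower than in Tconv by −0.89 on the log2 scale (SE 0.23, adjusted p = 0.00703, lower in 3 of 4). *Tbx21* in Tregs of Balb/c mice stood at 0, 36.7, 12.1 and 25.9 CPM on HFHS diet and at 8.34 and 0 CPM on SD, and in C57Bl/6J mice it was at 13.99, 7.201 and 0.0599 CPM in 3 libraries and at 0 in 5. These values overlapped those of Tconv, and *Tbx21* did not pass (log2 difference −3.41, SE 1.37, adjusted p = 0.0941, lower in 3 of 4), although DESeq2 and limma-voom called it. *Runx3* did not pass either, with 0.0400 to 120 CPM (median 25.1) in Tregs (log2 difference −0.94, SE 0.61, adjusted p = 0.368, lower in 3 of 4), but limma-voom called it.

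*Gzmb* in rest brain Tregs stood at 0, 642, 0.0613 and 52.2 CPM in C57Bl/6J mice on HFHS diet and at 0, 126, 77.2 and 0 CPM on SD. In Balb/c mice it stood at 0, 0, 55.2 and 39.5 CPM on HFHS diet and at 41.8 and 94.7 CPM on SD. Of the 14 libraries, 5 were at 0 and 8 held 39.5 CPM or more, within or above the Tconv range of 4.48 to 97.5 CPM, and the log2 difference was 0.59 (SE 1.03, adjusted p = 0.796, lower in 1 of 4). *Prf1* was found in 4 of 14 rest brain Treg libraries, at 59.6 CPM in C57Bl/6J SD pool 67_71 and at 24.2, 27.7 and 3.75 CPM in Balb/c HFHS pools 15_21, 16_20 and 26_31. Its mean was 8.23 CPM in Tregs and 7.45 CPM in Tconv, and it did not pass (log2 difference −2.44, SE 2.28, adjusted p = 0.571, lower in 3 of 4), while limma-voom called it. The 2 CD8 genes together held 0.0599 to 78.5 CPM in rest brain Tregs, and *Ncr1*, *Klre1* and *Klra4* were at 0 in all 14, with *Fcer1g* the most abundant of the 7 NK genes and a sum of at most 37.3 CPM.

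The same 6 genes were called without the library over 100 CPM of *P2ry12*, and no single library left out ended a call. With C57Bl/6J mice alone 3 were called (*Eomes*, *Il12rb2* and *Gzmk*), and the same 3 without the Tconv libraries over 50 CPM of *Cd8a*, where *Nkg7* (−3.27), *Gzma* (−8.72) and *Stat4* (−1.09) kept their direction but did not pass. With Balb/c mice alone 4 were called (*Eomes*, *Nkg7*, *Gzma* and *Gzmk*). SD libraries alone also gave 4 (*Eomes*, *Il12rb2*, *Gzma* and *Gzmk*), and there *Nkg7* (−4.20) and *Stat4* (−1.33) did not pass.

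Of the Th1 pathway list all 20 genes were tested in the rest brain, 1 was higher and 4 were lower in Tregs (median −0.14). *Ifngr1*, a chain of the interferon-gamma receptor, was the higher one (log2 difference 0.61, adjusted p = 0.00774, higher in 4 of 4). *Ifng*, the Th1 cytokine itself, ranged from 0 to 174 CPM (median 16.3) in Tregs and from 283 to 1011 CPM (median 529) in Tconv, without overlap (log2 difference −4.30, adjusted p = 0.00134, lower in 4 of 4). *Hlx* (−4.48, adjusted p = 0.00661) and *Jak2* (−1.40, adjusted p = 0.00994) were also lower, each in 4 of 4. Of the 22 cytotoxic machinery genes, 2 were higher and 6 lower (median −0.48). *Klrg1*, a receptor of terminally differentiated cells, was higher in Tregs, at 70.3 to 943 CPM against 4.94 to 43.2 CPM in Tconv, without overlap (log2 difference 4.11, adjusted p = 7.76e-09, higher in 4 of 4). *Unc13d* was the other (log2 difference 1.10, adjusted p = 0.0493, higher in 4 of 4), and the largest lower ones were *Gzmm* (−6.07), *Crtam* (−5.45) and *Ccl5* (−4.22), each lower in 4 of 4 with adjusted p = 0.00179, 0.0216 and 8.04e-07. Of the regulators of other helper fates, 4 of 10 were higher, led by *Foxp3*, *Ikzf2* and *Id3*, and *Tcf7* was lower (median 0.73).

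Whether the gap between Tregs and Tconv differed between the tissues was tested as an interaction over all 59 libraries. *Gzmb* and *Prf1* passed with edgeR, and 9.48% of the 14764 genes tested passed. For *Gzmb* the log2 difference in the hypothalamus minus that in the rest brain was −8.29 (SE 2, adjusted p = 0.00309), and for *Prf1* it was likewise negative (adjusted p = 0.000568), without a size, since *Prf1* was at 0 in every hypothalamic Treg library. Over the alternatives the adjusted p ran from 0.000498 to 0.0136 for *Gzmb* and from 1.2e-40 to 0.503 for *Prf1*, whose call was lost with limma-voom (−1.52), while DESeq2 gave no adjusted p for *Gzmb*. Both were also called without the Treg libraries under 10 CPM of *Foxp3* and without the libraries over 100 CPM of *P2ry12*. *Tbx21*, called by edgeR in the hypothalamus only, did not pass this test with edgeR (−4.95, SE 2.07, adjusted p = 0.132) but did with DESeq2 and with limma-voom. Not called by edgeR were also *Gzma* (3.97, adjusted p = 0.405) and *Stat4* (−0.33, adjusted p = 0.945), each called in the rest brain only, and *Gzmk* (−3.05, SE 1.17, adjusted p = 0.092), of which limma-voom called *Stat4*. Of the fixed lists, *Hlx* and *Srgn* had a positive interaction and *Slamf7*, *Fasl* and *Crtam* a negative one.

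Tconv of the 2 tissues were compared with strain and diet as terms. *Gzmb* was higher and *Gzmk* slightly lower in the hypothalamus, and the remaining 8 genes did not pass with edgeR. edgeR called 2 of the 10 genes, against 17.4% of the 12833 genes tested. *Gzmb* in hypothalamic Tconv of C57Bl/6J mice stood at 168, 99.8, 1390 and 97.98 CPM on HFHS diet and at 419, 244, 216 and 201 CPM on SD. In those of Balb/c mice it stood at 62.4, 42.3, 19.99 and 53.1 CPM on HFHS diet and at 0, 84.6, 95.5 and 8.31 CPM on SD. All 8 C57Bl/6J libraries were thus higher than all 8 Balb/c libraries. *Gzmb* in rest brain Tconv stood at 53.1, 97.5 and 51.2 CPM (C57Bl/6J, HFHS diet), 10.1, 77.5, 60.3 and 58.1 CPM (C57Bl/6J, SD), 15.7, 4.48 and 24.5 CPM (Balb/c, HFHS diet) and 17.9, 58.6 and 15.8 CPM (Balb/c, SD). In C57Bl/6J mice the hypothalamic values, from 98.0 CPM, all lay above those of the rest brain, up to 97.5 CPM, while in Balb/c mice they overlapped, and the log2 difference over both strains was 1.71 (SE 0.54, adjusted p = 0.0257, higher in 4 of 4 combinations). This call was lost without C57Bl/6J HFHS pool 72_76 of the hypothalamus (1.28, adjusted p = 0.0607), and over the alternatives the adjusted p ran from 0.00444 to 0.559. It was also lost with Balb/c mice alone (0.78, adjusted p = 0.559), C57Bl/6J mice alone (2.54, adjusted p = 0.176) and SD libraries alone (1.45, adjusted p = 0.377).

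*Gzmk* in Tconv stood at 58.2 to 217 CPM (median 109) in the hypothalamus and at 78.8 to 273 CPM (median 144) in the rest brain, with wide overlap (log2 difference −0.48, SE 0.17, adjusted p = 0.0418, lower in 3 of 4 combinations). The call was lost without any 1 of 17 of the 29 libraries, with adjusted p from 0.0522 to 0.0925. These were, in the rest brain, C57Bl/6J pools 38_42, 11_15 and 01_05 and Balb/c SD pools 32_36, 37_41 and 42_46, and, in the hypothalamus, C57Bl/6J pools 43_47, 06_10, 67_66 and 77_80, Balb/c HFHS pools 11_14, 15_21 and 16_20 and Balb/c SD pools 06_10, 32_36, 37_41 and 42_46. Without the libraries over 100 CPM of *P2ry12* it was lost as well (−0.47, adjusted p = 0.0551, over the alternatives 0.00373 to 0.9999). Without C57Bl/6J HFHS pool 33_37 of the rest brain 4 genes were called in place of 2. *Tbx21* (0.81, SE 0.33, adjusted p = 0.0882, higher in 3 of 4), *Nkg7* (−0.31, SE 0.13, adjusted p = 0.114, lower in 3 of 4) and *Prf1* (1.40, SE 0.95, adjusted p = 0.372, higher in 4 of 4) did not pass. DESeq2 and the fits with looser count filters called *Tbx21*, and with Balb/c mice alone both *Tbx21* (higher in the hypothalamus) and *Nkg7* (lower) were called. Of the fixed lists, 4 Th1 pathway genes were higher in the hypothalamus and 1 lower, led by *Il12rb1*, the partner chain of *Il12rb2* (1.83, adjusted p = 0.00448, higher in 4 of 4), *Bhlhe40* (0.65, adjusted p = 0.0451, higher in 4 of 4) and *Il27ra* (0.61, adjusted p = 0.025, higher in 3 of 4), with *Il18r1* lower (−0.61, adjusted p = 0.011, lower in 4 of 4). Of the cytotoxic machinery 3 were higher (*Unc13d*, *Stxbp2* and *Ctsw*, all of granule release or content) and 2 lower (*Ccl5* and *Srgn*), and of the other regulators *Ikzf2* and *Maf* were lower. List medians were 0.01, −0.08 and −0.19, against −0.11 for all genes and 0.05 for the 10 genes.

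Tregs of the 2 tissues differed in the granule genes *Gzmb* and *Prf1*. Both were lower in the hypothalamus, and edgeR called these 2 of the 8 genes that had enough counts, against 5.60% of 12602 genes, while *Eomes* and *Gzmk* were too low to test. Of all genes 11 were called higher and 695 lower in hypothalamic Tregs, whose libraries held a median of 5808 genes against 10110 in rest brain Tregs. *Gzmb*, at or near 0 in 15 of 16 hypothalamic and found at 39.5 CPM or more in 8 of 14 rest brain Treg libraries, differed by −9.35 on the log2 scale (SE 2.40, adjusted p = 0.0203, lower in 4 of 4 combinations). This call was lost with C57Bl/6J mice alone and with SD libraries alone, and over the alternatives the adjusted p ran from 1.11e-07 to 1. *Prf1* was at least 27.2-fold lower in the hypothalamus, where it was at 0 throughout (adjusted p = 0.0418, lower in 2 of 4, with 0 on both sides in the others). This bound leans on C57Bl/6J SD pool 67_71 of the rest brain, which at 59.6 CPM was the highest of the 4 libraries that held *Prf1*. Without the 4 Treg libraries under 10 CPM of *Foxp3*, *Gzmb* alone was called, and *Prf1* was lost (−7.06, adjusted p = 0.0622, over the alternatives 6.58e-17 to 0.276), while both were called without the libraries over 100 CPM of *P2ry12*. *Prf1* also did not pass with limma-voom (−1.29, adjusted p = 0.276) or with Balb/c mice alone (−8.88, adjusted p = 0.082). The *Prf1* call was also lost without any 1 of 18 of the 30 libraries, most of all without the rest brain Tregs of C57Bl/6J SD pool 67_71 (−2.09, adjusted p = 0.101). The others, with adjusted p from 0.0506 to 0.0627, were rest brain Balb/c pools 15_21, 16_20, 37_41 and 42_46, and hypothalamic Balb/c HFHS pools 11_14, 15_21, 16_20 and 26_31, Balb/c SD pools 06_10, 32_36, 37_41 and 42_46, and C57Bl/6J pools 67_71, 77_80, 43_47, 06_10 and 62_66. *Tbx21* did not pass with edgeR (−6.66, SE 2.43, adjusted p = 0.096, lower in 3 of 4), while DESeq2 and the fit of Balb/c mice alone called it, and for *Nkg7* the difference was 0.35 (SE 1.31, adjusted p = 0.982). Of the fixed lists, 3 cytotoxic machinery genes were lower in hypothalamic Tregs: *Slamf7* (at least 27.5-fold, adjusted p = 0.0097), *Fasl* (log2 difference −8.29, adjusted p = 0.0159) and *Gzmc* (at least 6.60-fold, adjusted p = 0.0254). No gene of the other lists was called by edgeR, with 2 of 19 Th1 pathway genes and 2 of 10 regulators of other fates at an unadjusted p under 0.05, and all-gene and list medians lay between −0.70 and −1.16.

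Strains were compared within a cell type and tissue with diet as a term. In hypothalamic Tconv, *Nkg7* was the gene that passed, lower in Balb/c females than in C57Bl/6J males, with *Gzmb* and *Il12rb2* showing larger differences that did not pass. edgeR called 1 of the 10 genes against 2.10% of 10875. *Nkg7* in C57Bl/6J Tconv stood at 2248, 1663, 1747 and 1964 CPM on HFHS diet and at 1450, 1897, 1485 and 1987 CPM on SD. In Balb/c Tconv it stood at 1262, 1038, 1167 and 1700 CPM on HFHS diet and at 1143, 1253, 832 and 897 CPM on SD. The strains overlapped in Balb/c HFHS pool 26_31 alone, which at 1700 CPM lay above 3 C57Bl/6J libraries, and the log2 difference was −0.66 (SE 0.13, adjusted p = 0.00766, lower in 2 of 2 diets). With SD libraries alone the call was lost (−0.75, adjusted p = 0.274, over the alternatives 1.18e-05 to 0.274). *Gzmb*, although its strains did not overlap, did not pass (log2 difference −2.93, SE 0.79, adjusted p = 0.0661, lower in 2 of 2), and without Balb/c SD pool 06_10, the library at 0, 2 of the 10 genes were called. *Il12rb2* stood at 56.4, 41.7, 27.4 and 19.7 CPM and 88.4, 44.8, 8.47 and 28 CPM in C57Bl/6J and at 1.97, 6.36, 13.7 and 40.97 CPM and 0, 6.52, 3.46 and 4.55 CPM in Balb/c Tconv (HFHS diet and SD). Its higher values were in C57Bl/6J mice, with overlap (log2 difference −2.38, SE 0.87, adjusted p = 0.261, lower in 2 of 2), and DESeq2 called it. Of the lists, *Ifngr1* (−1.03, adjusted p = 0.000875) and *Fasl* (−0.57, adjusted p = 0.0461) were lower in Balb/c mice in both diets, and no other gene of the 3 lists was called by edgeR. Summed CD8 transcripts were 183 to 619 CPM in Balb/c and 8.69 to 614 CPM in C57Bl/6J libraries of hypothalamic Tconv, so the lowest were all C57Bl/6J, and their part in these differences was not tested.

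Between the strains, *Tbx21* was the gene that edgeR called in rest brain Tconv. This was 1 of the 10 genes, while edgeR called 23.5% of the 12287 genes tested, and the median of all genes moved from −0.03 to −0.30 when libraries were scaled by totals alone. *Tbx21* in C57Bl/6J Tconv stood at 95.04, 48.5 and 68.6 CPM on HFHS diet and at 15.9, 72.2, 55.8 and 78.9 CPM on SD. In Balb/c Tconv it stood at 13.8, 6.77 and 8.15 CPM on HFHS diet and at 13.7, 24.4 and 59.6 CPM on SD. Balb/c HFHS pools 16_20 and 47_25 were the lowest, and the Balb/c SD pool 42_46 at 59.6 CPM, the library with 265 CPM of *P2ry12*, and the C57Bl/6J SD pool 01_05 at 15.9 CPM made the strains overlap (log2 difference −1.48, SE 0.44, adjusted p = 0.0206, lower in 2 of 2 diets). The 3 Balb/c HFHS libraries were also low in *Cd3e*, at 1230, 1187 and 982 CPM against 1936 to 2355 CPM in the other 10 rest brain Tconv libraries, and whether this bears on *Tbx21* was not tested. The call was lost without Balb/c HFHS pool 47_25 (−1.33, adjusted p = 0.0538) or 16_20 (−1.35, adjusted p = 0.0516) and with SD alone (−0.70, adjusted p = 0.554, over the alternatives 0.000658 to 0.554), and it was kept without pool 42_46. Without C57Bl/6J SD pool 01_05, Balb/c SD pool 37_41 or Balb/c HFHS pool 15_21, 2 genes were called. *Il12rb2* stood at 11.8 to 42.2 CPM in C57Bl/6J and at 0.164 to 12.96 CPM in Balb/c Tconv (log2 difference −1.94, SE 0.74, adjusted p = 0.067, lower in 2 of 2). *Prf1* stood at 2.64 to 25.1 CPM and 0.0545 to 4.16 CPM (log2 difference −2.50, SE 1.01, adjusted p = 0.0842, lower in 2 of 2), and *Gzmb* at 10.1 to 97.5 CPM and 4.48 to 58.6 CPM (log2 difference −1.13, SE 0.49, adjusted p = 0.107, lower in 2 of 2). None of these 3 passed with the main edgeR fit, while DESeq2 and limma-voom both called *Il12rb2* and *Prf1*. Without a filter on low counts, edgeR called *Il12rb2* (−1.99, adjusted p = 0.0113) and *Gzmb* (−1.16, adjusted p = 0.0162). With library totals it called *Il12rb2* (−2.17, adjusted p = 0.0489). *Nkg7* differed by 0.09 (SE 0.19, adjusted p = 0.792), and whether its strain difference differs between the tissues was not tested. Summed CD8 transcripts were 276 to 479 CPM in Balb/c and 1.94 to 736 CPM (median 39.8) in C57Bl/6J libraries here, and their part was not tested.

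Of the 20 Th1 pathway genes, 0 were higher and 7 lower in rest brain Tconv of Balb/c mice (median −0.65 against −0.03 for all genes and −0.59 for the 10 genes). *Il12rb1* ranged from 0.219 to 4.06 CPM in Balb/c and from 4.45 to 43.75 CPM in C57Bl/6J Tconv (log2 difference −3.61, adjusted p = 0.00185). *Bhlhe40*, a factor of interferon-gamma production, was also lower (−1.45, adjusted p = 0.000224), and neither of these genes overlapped between the strains. Of the cytotoxic machinery 3 genes were higher (*Crtam*, *Ccl5* and *Srgn*) and 6 lower, led by the release factors *Unc13d* (−1.67, adjusted p = 0.00129), *Stx11* (−1.25, adjusted p = 0.0217) and *Stxbp2* (−1.10, adjusted p = 0.00475). *Srgn* was at 1431 to 1900 CPM in Balb/c against 915.5 to 1236 CPM in C57Bl/6J Tconv (0.95, adjusted p = 0.000138, higher in 2 of 2 diets). Of the other regulators *Maf* was higher and *Tcf7* lower.

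**Figure D3:**
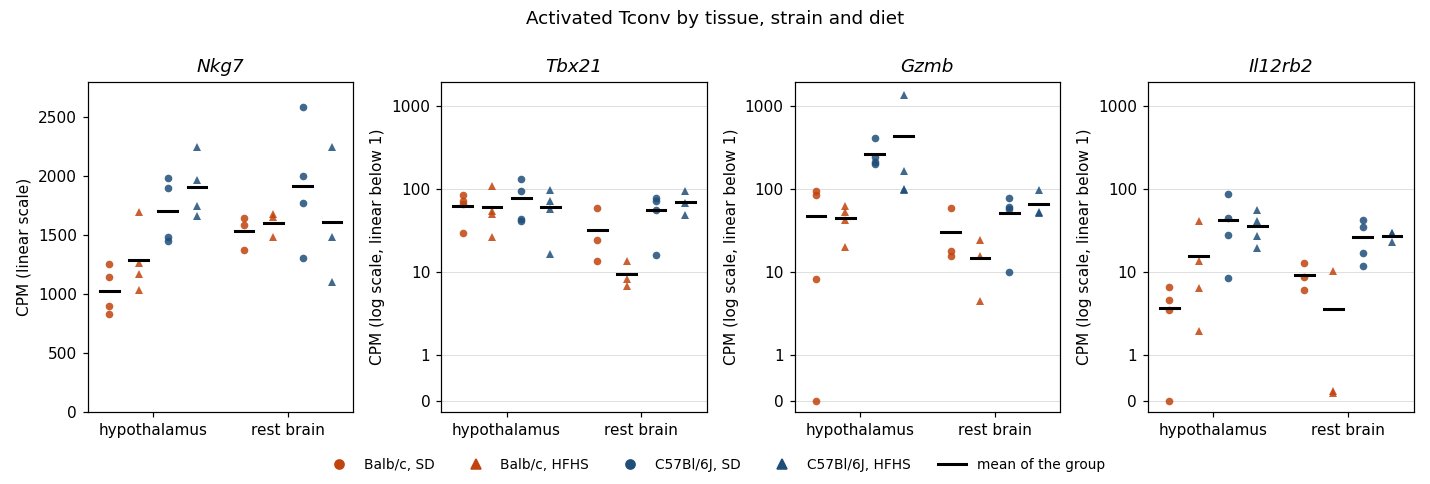
Each point is 1 Tconv library, with CPM of *Nkg7* (linear axis) and of *Tbx21*, *Gzmb* and *Il12rb2* (symmetric log axes) by tissue, strain and diet, and a black line at the mean of each group. *Gzmb* of hypothalamic Tconv is 98.0 CPM or more in all 8 C57Bl/6J and 95.5 CPM or less in all 8 Balb/c libraries.

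With edgeR, no strain difference passed in Tregs for those of the 10 genes that had enough counts. In the hypothalamus 3 of the 10 had enough counts (*Runx3*, *Stat4* and *Nkg7*), and edgeR called 0 of them, 0 at an unadjusted p under 0.05, against 0.0389% of 7715 genes, with 0 called by DESeq2 and by limma-voom. In the rest brain 7 were tested and edgeR called 0, 0 at an unadjusted p under 0.05, against 0.299% of 11711 genes, while DESeq2 called *Prf1* and limma-voom 0. *Stat4* of hypothalamic Tregs reached 809 CPM in Balb/c and 310 CPM in C57Bl/6J mice, with libraries at 0 in both strains. Whether strain acts differently in the cell types was tested as an interaction. In the hypothalamus edgeR passed 0 of the 10 genes, 0 at an unadjusted p under 0.05, against 2.07% of 11283 genes, and DESeq2 and limma-voom also passed 0. For *Nkg7* this interaction was −0.11 (SE 2, adjusted p = 1). In the rest brain edgeR passed 0 of 10 against 4.92% of 13956, with *Il12rb2* (8.16, adjusted p = 0.196) and *Gzmk* (−5.75, adjusted p = 0.231) at an unadjusted p under 0.05. DESeq2 passed these 2, and limma-voom passed *Prf1* alone. For *Tbx21* the interaction was 3.92 (SE 2.49, adjusted p = 0.484). Leaving out the libraries under 10 CPM of *Foxp3* or over 100 CPM of *P2ry12* gave 0 of the 10 genes in each of these Treg and interaction tests that they enter. Of the lists, *Ifngr2* passed in the hypothalamus, and *Ccl5*, *Cst7*, *Srgn* and *Maf* in the rest brain, all with a negative interaction.

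With edgeR, no difference between the diets passed for any of the 10 genes in any cell type or tissue of the replicated experiment, while DESeq2 called *Nkg7* in hypothalamic and *Prf1* in rest brain Tregs. edgeR called 0 of 10 genes in hypothalamic Tconv and 0% of 10875 genes, with 0 of the 10 and 406 of all genes at an unadjusted p under 0.05, while DESeq2 called 16 genes and limma-voom 0, none of them among the 10. In rest brain Tconv it called 0 of 10 and 0% of 12287, with 0 of the 10 and 591 of all genes at an unadjusted p under 0.05, while DESeq2 called 12 genes and limma-voom 1, again none of the 10. *Nkg7* in hypothalamic Tconv, the tissue and cells at the centre of the study's question, ranged from 1038 to 2248 CPM (median 1681) in 8 libraries on HFHS diet and from 832 to 1987 CPM (median 1351) in 8 on SD. The log2 difference was 0.27 (SE 0.13, adjusted p = 1, higher in 2 of 2 strains), with overlap between the diets. *Tbx21* ranged from 16.6 to 109 CPM on HFHS diet and from 29.9 to 135 CPM on SD (log2 difference −0.18, SE 0.36, adjusted p = 1, lower in 2 of 2). *Gzmk* differed by 0.16 (SE 0.22, adjusted p = 1, lower in 1 of 2) and *Gzmb* by 0.36 (SE 0.74, adjusted p = 1, lower in 1 of 2). *Nkg7* of rest brain Tconv differed by −0.02 (SE 0.19, adjusted p = 0.9999) and *Tbx21* by −0.54 (SE 0.43, adjusted p = 0.9999), each lower in 1 of 2 strains. For *Nkg7* the SEs of 0.13 and 0.19 leave little room for a change as large as 2-fold in Tconv, whereas the SEs of 0.74 and 0.48 for *Gzmb* do not exclude one.

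In hypothalamic Tregs edgeR called 0 of the 3 genes tested and 0% of 7715 genes on diet, with 1 of the 3 and 213 of all genes at an unadjusted p under 0.05, and DESeq2 called 180 genes, *Nkg7* among them, and limma-voom 4. *Nkg7* was the 1 at an unadjusted p under 0.05, and in both strains its HFHS libraries held the highest values (0.170 to 1278 CPM, median 164, against 0 to 86.7 CPM, median 0.989, on SD). The log2 difference was 4.46 (SE 1.69, adjusted p = 1, higher in 2 of 2 strains). Of the 4 libraries under 10 CPM of *Foxp3* 3 were on SD, as were the 3 hypothalamic Treg libraries over 100 CPM of *P2ry12*, and without either set of libraries *Nkg7* stayed higher on HFHS diet and did not pass. In rest brain Tregs edgeR called 0 of 7 genes tested and 0% of 11711, with 1 of the 7 and 853 of all genes at an unadjusted p under 0.05, and DESeq2 called 327 genes, *Prf1* among them, and limma-voom 16. The 1 was *Gzma*, at 0 in all 6 SD libraries and at 32.2 and 0.482 CPM in 2 of 8 HFHS libraries (adjusted p = 0.496). The higher of the 2 was C57Bl/6J HFHS pool 77_80. Without the libraries under 10 CPM of *Foxp3*, or without those over 100 CPM of *P2ry12*, edgeR again called 0 of the 10 genes for diet. No gene of the 3 lists was called for diet in any of the 4 comparisons by edgeR, with at most 3 of a list at an unadjusted p under 0.05.

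Whether diet acted differently in the strains was tested as an interaction, and again none of the 10 genes passed with the main edgeR fit. In hypothalamic Tconv edgeR passed 0 of 10 and 0% of 10875 genes, with 0 of the 10 and 493 of all genes at an unadjusted p under 0.05 (DESeq2 165 genes, limma-voom 0). In rest brain Tconv it passed 0 of 10 and 0.610% of 12287 genes (75), and 0 of 10 and 0 of 12922 genes without the library over 100 CPM of *P2ry12*. There *Stat4* (−0.60, SE 0.23, adjusted p = 0.241) and *Tbx21* (−1.72, SE 0.76, adjusted p = 0.340) were at an unadjusted p under 0.05, and DESeq2 and limma-voom passed 0 of the 10. Without a filter on low counts, edgeR passed *Gzma* alone of the 10 (3.14, adjusted p = 0.00102). *Stat4* in Balb/c Tconv of the rest brain stood at 268, 305 and 222 CPM on HFHS diet and at 444, 435 and 464 CPM on SD, without overlap, the HFHS libraries being those low in *Cd3e*. In C57Bl/6J Tconv it stood at 472, 606 and 515 CPM on HFHS diet and at 414, 521, 412 and 507 CPM on SD, with overlap. In hypothalamic Tregs edgeR passed 0 of 3 and 0% of 7715 genes (1295 at an unadjusted p under 0.05, 0 of the 3 among them, DESeq2 1328 and limma-voom 110 genes). Without the libraries under 10 CPM of *Foxp3* it passed 0 of 5 members tested, and without those over 100 CPM of *P2ry12* 0 of 6, with 1 of all genes each time. In rest brain Tregs it passed 0 of 7 and 0% of 11711 genes, with *Prf1* among 662 genes at an unadjusted p under 0.05 (DESeq2 577 genes, *Prf1* among them, and limma-voom 1).

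The pilot gives the same genes in Tconv that the sort kept low to intermediate in CD44 and in Tregs of Balb/c females. Each value is 1 library, so there is no replicate check, and intervals are exact 95% intervals of the counts. Few reads fell on genes: 9.50% (Tconv, HFHS diet), 9.41% (Tconv, SD), 6.23% (Tregs, HFHS diet) and 3.84% (Tregs, SD). The intervals do not cover this, and its part in the ratios was not tested. In these Tconv *Nkg7*, *Tbx21*, *Gzma*, *Gzmk* and *Runx3* were higher on HFHS diet than on SD, while *Eomes* and *Gzmb* had 0 counts on both diets. *Nkg7* had 2821 and 107 counts, a ratio of 40.2 (33.15 to 49.2), and *Tbx21* had 39 and 2, a ratio of 29.7 (7.70 to 254). *Gzma* had 568 counts (261 CPM) on HFHS diet and 3 (0.905 CPM) on SD, a ratio of 289 (98.3 to 1404). *Gzmk* had 56 counts (25.8 CPM) on HFHS diet and 0 on SD and so was at least 28.5-fold higher, with the floor of 3 counts per library. *Runx3* had 253 counts (116 CPM) and 151 (45.5 CPM), a ratio of 2.56 (2.08 to 3.15). *Stat4* went the other way, with 365 counts (168 CPM) on HFHS diet and 837 (252.5 CPM) on SD, a ratio of 0.665 (0.587 to 0.753). *Prf1*, with 54 and 100 counts (ratio 0.824, 0.580 to 1.16), and *Il12rb2*, with 15 and 19 (ratio 1.20, 0.569 to 2.50), had intervals that include equal levels. *Cd8a* and *Ncr1* had 0 counts in both libraries, while *Cd8b1* had 113 counts (52.0 CPM) on HFHS diet and 19 (5.73 CPM) on SD, and the SD library held 241 counts of *Foxp3* (72.7 CPM) against 3 in the HFHS library. What part these transcripts had in the ratios was not tested.

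In the pilot Tregs *Tbx21*, *Eomes*, *Il12rb2*, *Gzmb*, *Gzmk* and *Prf1* had 0 counts on both diets. *Nkg7* had 450 counts (222 CPM) on HFHS diet and 140 (113 CPM) on SD, a ratio of 1.96 (1.61 to 2.38). *Stat4* had 731 and 79 counts (ratio 5.63, 4.46 to 7.19), *Runx3* had 75 and 0 (at least 15.2-fold higher on HFHS diet), and *Gzma* had 0 and 136 (at least 74.5-fold lower on HFHS diet). *Gzma* thus differed between the diets in opposite directions in the 2 pilot cell types. Against Tregs on the same diet, *Nkg7* in Tconv was 5.85-fold higher on HFHS diet (5.30 to 6.48) but lower on SD, with a ratio of 0.285 (0.219 to 0.369), and *Prf1* was at least 16.8-fold and 12.4-fold higher. In the replicated experiment, whose Tconv were sorted as high in CD44, *Nkg7* stood above 831 CPM in all 29 Tconv libraries on either diet, far from the 32.3 CPM of the pilot SD library and near the 1298 CPM of the pilot HFHS library.

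In *ob/ob* mice, CD4+T cells of the hypothalamus held 2490 counts of *Nkg7* (1441 CPM), 255 of *Gzmk* (148 CPM), 245 of *Runx3* (142 CPM), 703 of *Stat4* (407 CPM), 24 of *Tbx21* (13.9 CPM) and 42 of *Il12rb2* (24.3 CPM). *Gzmb* had 9 counts, *Eomes* 8 and *Prf1* 0. The WT library was shallow, with 220336 counts and a floor of 13.6 CPM, and held *Nkg7* (179 counts, 812 CPM) and *Gzma* (282 counts, 1280 CPM) alone of the 10 genes. Of its reads 0.791% fell on genes, against 7.15% in the *ob/ob* CD4+ library and 0.391% in the *ob/ob* CD25 hi library. *Nkg7* was 1.77-fold higher in *ob/ob* mice (1.52 to 2.08), *Stat4* at least 29.9-fold, *Gzmk* at least 10.8-fold and *Runx3* at least 10.4-fold, whereas *Gzma*, with 0 counts in *ob/ob* mice, was at least 737-fold lower. The *ob/ob* library also held 68 counts of *Ncr1* and 165 of *Cd8b1*, and the WT library held *Foxp3* at 299.5 CPM against 27.8 CPM in the *ob/ob* library, and their part was not tested. The *ob/ob* CD25 hi library, with 99925 counts, held 121 counts of *Nkg7* (1211 CPM) and 46 of *Stat4* and 0 of the other 8 genes, which at this depth allows up to 30.0 CPM of each.

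Within groups, the 10 genes did not vary as 1 block across the 29 Tconv libraries. By r the closest pair was *Nkg7* and *Gzmk* (r = 0.66, rho = 0.54). Next came *Eomes* and *Runx3* (r = 0.63, rho = 0.54), *Eomes* and *Prf1* (r = 0.56, rho = 0.68) and *Tbx21* and *Gzmb* (r = 0.56, rho = 0.50). By rho *Eomes* and *Prf1* were closest, and *Runx3* and *Gzma* (r = 0.53, rho = 0.55) also stood above *Nkg7* and *Gzmk*. *Stat4* and *Prf1* ran in opposite directions (r = −0.57, rho = −0.55). *Tbx21* and *Eomes*, the related T-box factors, had r = 0.01. Over all 12833 genes tested in Tconv, the gene most like both *Nkg7* (r = 0.73, rho = 0.68) and *Gzmk* (r = 0.81, rho = 0.68) was *Ccl5*, a chemokine gene stored and used by effector T cells. The genes most like the others were *Ddx47* for *Tbx21* (r = 0.75), *Cnot9* for *Eomes* (0.73), *Cdc42se2* for *Runx3* (0.82), *Slc33a1* for *Stat4* (0.71), *Mettl3* for *Il12rb2* (0.83), *Pepd* for *Gzma* (0.72), *Abtb1* for *Gzmb* (0.81) and *Tmem123* for *Prf1* (0.74). With the 2 libraries farthest from the median left out, these 10 leading r values lay between 0.68 and 0.82. The named gene was then no longer first for *Tbx21*, *Runx3*, *Stat4*, *Gzmb* and *Gzmk*. For *Gzmk*, *Ccl5* fell to 0.71, below another gene at 0.81. All are descriptions over 29 libraries that share depth and sorting, picked as the highest of many.

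Promoters are shown for 3 of the granule genes, *Nkg7* and *Gzmk*, which separated the cell types without overlap in the rest brain, and *Gzmb*, called between the tissues in both cell types, 250 bases before to 50 after the transcription start, from RefSeq on GRCm38.p6, 5′ to 3′ in the direction of the gene. Capitals mark the letters searched on both strands: the T-box core GGTGTGA, which binds T-bet and Eomesodermin, the core TGTGGT of Runt factors such as Runx3, and, for Stat4 and its relatives, TTCNNNGAA. Of 32851 mouse promoters of this length, 3.98% held the T-box letters, 16.8% the Runt letters and 8.3% the STAT pattern, against 2, 5 and 3 of the 10 genes. *Nkg7* (chr7:43436888-43437187, plus strand) held 1 of each, *Gzmk* (chr13:113180916-113181215, minus strand) held 1 T-box core, and *Gzmb* (chr14:56262285-56262584, minus strand) held 2 Runt cores and 1 STAT pattern. A match describes letters and not binding.
Nkg7: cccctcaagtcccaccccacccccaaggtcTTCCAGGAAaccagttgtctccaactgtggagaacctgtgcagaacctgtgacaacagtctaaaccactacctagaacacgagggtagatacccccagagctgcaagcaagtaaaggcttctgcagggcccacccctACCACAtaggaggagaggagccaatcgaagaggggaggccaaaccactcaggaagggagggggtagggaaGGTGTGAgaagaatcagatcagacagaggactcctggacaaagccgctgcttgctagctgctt
Gzmk: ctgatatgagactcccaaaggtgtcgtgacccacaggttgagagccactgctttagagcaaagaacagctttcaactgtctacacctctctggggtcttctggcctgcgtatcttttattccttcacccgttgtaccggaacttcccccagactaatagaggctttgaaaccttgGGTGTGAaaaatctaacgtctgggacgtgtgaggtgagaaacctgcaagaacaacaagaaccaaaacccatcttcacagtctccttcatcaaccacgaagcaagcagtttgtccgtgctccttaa
Gzmb: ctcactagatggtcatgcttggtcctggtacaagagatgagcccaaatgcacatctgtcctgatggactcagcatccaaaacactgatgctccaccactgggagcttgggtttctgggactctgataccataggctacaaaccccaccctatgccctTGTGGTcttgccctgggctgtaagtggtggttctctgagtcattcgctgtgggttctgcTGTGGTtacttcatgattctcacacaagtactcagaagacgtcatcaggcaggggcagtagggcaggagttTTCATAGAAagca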

How the data were processed

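The authors' deposited files of the replicated experiment hold estimated counts and TPM for each RefSeq name, made per the labels with Salmon on mm10, and the deposited pilot files hold counts for each gene symbol. Counts of the names of each gene were summed, rounded for the tests and given as CPM of the summed library, and TPM were summed in the same way. Members and gene lists were chosen with earlier results of these data known. Comparisons used edgeR 4.0.16 (R 4.3.3): TMM scaling, quasi-likelihood F test, a filter that kept genes over 10 counts in a number of libraries no less than the size of the smaller group, Benjamini-Hochberg adjustment over all genes tested and a threshold of 0.05. SE is the log2 difference divided by the root of F. Terms not compared (strain, diet) were in each model.

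Alternatives were DESeq2 1.42.0, limma-voom 3.58.1 with sample quality weights, DESeq2 size factors, library totals, other count filters, single strains, SD alone, a block for pool labels, and each library left out in turn. The 3 that leave out libraries by *Foxp3*, *P2ry12* or *Cd8a* were added. Tests were checked on simulated data. Pilot ratios and intervals use library totals, and the intervals are exact. Genes are named if they are members or listed markers, among the 3 largest calls per direction of a fixed list, or the single most similar gene. The gamma-delta T cell list had no gene in the files and was left out. Ranges and correlations used Python 3.11.15, numpy 2.4.6, pandas 2.3.3 and scipy 1.17.1, and figures matplotlib 3.10.9.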

Additional observations from a re-analysis of the deposited data

Results flagged for a closer look

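For each gene in each group of 4 libraries (92 sets with a library over 3 counts), the most distant value was compared with the other 3, and 22 stood far from them, where chance flags about 1 in 20 groups. In 13 of the 22 the other 3 libraries were all at 0, so that any value above 0 is flagged and this rate does not apply. In Tregs *Tbx21* stood apart at 27.2 CPM (hypothalamus, C57Bl/6J HFHS pool 72_76), 0.416 CPM (hypothalamus, Balb/c HFHS pool 11_14), 13.99 CPM (rest brain, C57Bl/6J HFHS pool 33_37) and 7.201 CPM (rest brain, C57Bl/6J SD pool 62_66). *Eomes* did so in Tregs at 1.12 CPM (hypothalamus, Balb/c HFHS pool 11_14) and 0.459 CPM (rest brain, C57Bl/6J HFHS pool 33_37). *Il12rb2* did so in Tregs at 6.96 CPM (hypothalamus, C57Bl/6J SD pool 43_47) and, in Balb/c HFHS pool 15_21, at 1.76 CPM in the hypothalamus and 5.07 CPM in the rest brain. *Stat4* did so at 418 CPM in rest brain Tregs of C57Bl/6J SD pool 67_71.

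*Nkg7* stood apart in Tregs at 86.7 CPM (hypothalamus, Balb/c SD pool 37_41) and as the lowest of its group at 53.3 CPM (rest brain, C57Bl/6J HFHS pool 21_25). *Gzma* did so in Tregs at 13.7 CPM (hypothalamus, C57Bl/6J HFHS pool 72_76), 189 CPM (hypothalamus, Balb/c SD pool 42_46), 32.2 CPM (rest brain, C57Bl/6J HFHS pool 77_80) and 0.482 CPM (rest brain, Balb/c HFHS pool 16_20). *Gzmb* did so at 142 CPM in hypothalamic Tregs of C57Bl/6J HFHS pool 33_37 and as the lowest at 10.1 CPM in rest brain Tconv of C57Bl/6J SD pool 01_05. *Gzmk* did so at 6.74 CPM in rest brain Tregs of C57Bl/6J SD pool 62_66. *Prf1* did so as the lowest at 0 CPM in hypothalamic Tconv of C57Bl/6J HFHS pool 77_80 and at 2.64 CPM in rest brain Tconv of C57Bl/6J SD pool 62_66, and as the highest at 59.6 CPM in rest brain Tregs of C57Bl/6J SD pool 67_71.

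The gap between Tregs and Tconv differed between the tissues for *Gzmb* (log2 interaction −8.29, adjusted p = 0.00309) and *Prf1* (fitted log2 interaction −10.71, adjusted p = 0.000568). The fitted value for *Prf1* gives no size, since *Prf1* was at 0 in every hypothalamic Treg library.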

How the results depend on the processing

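No difference of the 10 genes reversed under any alternative where the main fit or that alternative called it. Changes of sign in genes called by neither were not counted. The cause of the changes below was not tested. Counts of called genes among the 10 are given where they moved by more than 1.5 times. Tregs against Tconv of the hypothalamus (7 called) gave 3 with C57Bl/6J alone and 0 without Tconv libraries over 50 CPM of *Cd8a*, and Tregs against Tconv of the rest brain (6) gave 3 and 3. Tconv of the 2 tissues (2) gave 1 with library totals, 0 with C57Bl/6J alone, 0 with SD alone and 1 without libraries over 100 CPM of *P2ry12*. Tregs of the 2 tissues (2) gave 1 with limma-voom, 0 with C57Bl/6J alone, 0 with SD alone and 1 without Treg libraries under 10 CPM of *Foxp3*. Strains in hypothalamic Tconv (1) gave 2 with DESeq2, 2 without a filter and 0 with SD alone. Strains in rest brain Tconv (1) gave 3 with DESeq2, 3 with library totals, 3 without a filter, 3 with limma-voom and 0 with SD alone. Comparisons with 0 called gave 1 with DESeq2 for strains in rest brain Tregs, for diet in hypothalamic Tregs, for diet in rest brain Tregs and for strain and diet in rest brain Tregs. The interaction of cell type and strain in the rest brain gave 2 with DESeq2 and 1 with limma-voom, and that of strain and diet in rest brain Tconv gave 1 without a filter. The 3 alternatives that leave out libraries by marker level were chosen after the data were seen, and fewer libraries also lower the power.

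With each library left out in turn, counts ran from 7 to 8 (Tregs against Tconv, hypothalamus), 6 to 7 (rest brain), 1 to 4 (tissues, Tconv), 1 to 3 (tissues, Tregs), 1 to 2 (strains, hypothalamic Tconv) and 0 to 2 (strains, rest brain Tconv), and stayed at 0 in the other 6 of these comparisons. Interactions were not refitted in this way. In the Balb/c SD group of 2 rest brain Treg libraries, leaving out 1 keeps a lone library that is assumed to vary like the others.

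Pool labels recur across cell types and tissues, but the labels do not say that these are the same mice. Across pairs with the same label the correlations of residuals ran from −0.05 to 0.05 in the hypothalamus (15 pairs) and from −0.01 to 0.05 in the rest brain (12) for Tregs with Tconv, from −0.05 to 0.04 between tissues for Tconv (9) and from −0.04 to 0.01 for Tregs (10), and 0 pairs passed 0.1. With pool as replicate block in place of the strain-by-diet group, edgeR called 9, 8, 0 and 0 of the 10 genes in these 4 comparisons, against 7, 6, 2 and 2, and all-gene medians were −4.88, −1.03, −0.23 and −2.36, against −0.96, −0.35, −0.11 and −0.88, so the change cannot be put down to pairing.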
